A study of Mus musculus with 2 samples.

Results

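The nuclear genes for the subunits of the respiratory chain and the ATP synthase were followed in mouse regulatory T cells (Treg cells, a Foxp3-expressing CD4+ lineage that keeps other immune cells in check). They were taken by gene symbol. The prefixes were Nduf without Ndufaf (complex I), Uqcr (complex III), Cox4 to Cox8 (complex IV) and Atp5 (complex V), and Sdha, Sdhb, Sdhc and Sdhd made up complex II. The rule found 85 of the 24081 gene symbols in the count table: 38 of complex I, 4 of complex II, 8 of complex III, 18 of complex IV and 17 of complex V. Of these, 76 had a mean of at least 20 raw reads over the libraries and are called measured. The prefixes also take 5 genes that are not subunits of the complex they are named for: Ndufa4, now assigned to complex IV, its relative Ndufa4l2, the supercomplex factor Cox7a2l, and Atp5s and Atp5sl. They were kept in the counts.

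RNA was sequenced from 2 libraries of 5-week-old C57BL/6 mice. The KO library came from mice with both alleles of a SUMO pathway gene floxed, and the WT library from mice with 1 floxed and 1 wild-type allele. Both groups were Foxp3cre/wt, so Cre recombinase was under control of Foxp3, and CD4+ YFP+ cells were sorted from spleen and lymph nodes. Foxp3 is X-linked, so carriers with 1 Cre allele keep Treg cells without Cre, which the sort leaves out. Each library pooled cells of 5 to 10 mice. The study addressed the role of SUMOylation, a reversible coupling of SUMO proteins to their targets, in how Treg cells expand and work.

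Each group is 1 library, so the differences have no replicate check and were not tested. Intervals in parentheses are exact 95% binomial intervals for counting error only, and hold no spread between mice. Reads without molecular identifiers are not independent molecules. Depth differed: 23789264 reads were assigned to genes in KO and 11662867 in WT. All 6 Treg markers listed were detected, at a summed 5845 RPM (reads per library scaled to 1e6 gene reads) in KO and 4869 in WT. Of the 9 lists for other cells, the highest was that of monocytes and macrophages, at 370.0 RPM in KO and 425 in WT with 4 of its 5 genes in the table. The stromal and endothelial list followed at 318 in KO and 307 in WT, and the B cell list at 93.9 in KO and 121 in WT. The other 6 lists ranged from 0.378 to 40.4 RPM in KO and from 0.686 to 34.5 in WT, and the 4 haemoglobin genes were at 0 in both. The part of these cells in the results was not tested. In sorted, pooled cells, fewer cells of a kind and less RNA per cell cannot be told apart.

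Complexes I to IV pass electrons from NADH and succinate to oxygen along the inner mitochondrial membrane. Complexes I, III and IV pump protons, and complex V, the ATP synthase, lets them flow back and makes ATP. Complex I has a conserved core that carries the redox centres, surrounded by accessory subunits. Complex II is also an enzyme of the citric acid cycle, and pumps no protons. Treg cells are known for their reliance on oxidative phosphorylation. The factors NRF1, GABP (of the ETS family) and YY1 are known to bind promoters of many of these genes.

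Promoter sequence is shown for the measured members with the highest and the lowest ratio of KO over WT, Ndufa1 and Cox6b1, and for the members with the largest ratio whose printed stretch holds each of 3 motifs. All lie on the minus strand of GRCm38.p6 (RefSeq promoters), are printed 5′ to 3′ and stop before the first annotated exon base. The windows printed are chrX:37191239-37191438 for Ndufa1, chr7:30626152-30626314 for Cox6b1, chr16:37654454-37654568 for Ndufb4, chr4:116075072-116075270 for Uqcrh and chr17:24724479-24724623 for Ndufb10. Capitals mark the NRF1 motif in Ndufb4, the ETS motif read on the other strand in Uqcrh and the YY1 motif read on the other strand in Ndufb10; Ndufa1 and Cox6b1 hold none of them in the stretch shown.
Ndufa1: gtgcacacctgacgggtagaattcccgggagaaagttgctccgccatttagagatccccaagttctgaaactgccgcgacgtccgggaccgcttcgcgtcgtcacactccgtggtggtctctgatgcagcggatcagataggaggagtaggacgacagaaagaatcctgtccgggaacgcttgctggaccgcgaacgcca
Cox6b1: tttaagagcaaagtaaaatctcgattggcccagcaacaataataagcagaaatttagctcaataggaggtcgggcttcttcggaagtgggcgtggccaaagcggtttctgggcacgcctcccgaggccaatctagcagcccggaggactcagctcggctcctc
Ndufb4: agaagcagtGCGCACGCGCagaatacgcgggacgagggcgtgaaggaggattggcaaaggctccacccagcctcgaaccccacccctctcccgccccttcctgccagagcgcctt
Uqcrh: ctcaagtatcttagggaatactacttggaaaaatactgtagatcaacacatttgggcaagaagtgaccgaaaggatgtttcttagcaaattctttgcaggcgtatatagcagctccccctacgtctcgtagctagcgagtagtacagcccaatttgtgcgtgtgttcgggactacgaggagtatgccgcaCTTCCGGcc
Ndufb10: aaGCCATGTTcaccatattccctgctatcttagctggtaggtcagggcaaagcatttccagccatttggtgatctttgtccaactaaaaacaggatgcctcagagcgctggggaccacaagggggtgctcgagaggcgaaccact

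The promoter table held 67 of the 85 members, with 72 windows of 300 bases (250 before and 50 after the start), against 32851 windows of all genes. Both strands were searched. The NRF1 motif (GCGCA and GCGC with any 1 base between them) stood in 25.0% of member windows and 4.60% of all windows. The ETS motif CCGGAAG stood in 22.2% of member windows and 8.86% of all windows, and the YY1 motif AANATGGC in 22.2% and 6.05%. At least 1 of the 3 was present in 59.7% of member windows, against 17.4% of all. All windows include those of genes not expressed here, and the shares over expressed genes alone were not taken. The general promoter elements were close to the share of all windows: CCAAT in 41.7% of member windows and 37.4% of all, and TATAAA in 11.1% and 13.6%. No bases were shared between different motifs in any member window (0 windows). By complex, over measured members, the NRF1 motif was in 7 of 34 windows of complex I, 2 of 3 of complex II, 1 of 5 of complex III, 1 of 9 of complex IV and 6 of 16 of complex V. The YY1 motif was in 12, 0, 0, 1 and 3 of these windows from complex I to V, and the ETS motif in 4, 2, 2, 3 and 5. A match is a description of letters and not of binding. By the call in KO, no single direction held over the motifs. The NRF1 motif was in 5 of 25 windows of members called higher and 11 of 40 windows of members between the thresholds, the ETS motif in 8 of 25 and 7 of 40, the YY1 motif in 7 of 25 and 9 of 40, and TATAAA in 5 of 25 and 1 of 40. Of the 2 windows of the lower members, 1 held the NRF1 motif and 1 the ETS motif. None of the genes for the factors themselves reached 1.5-fold: Nrf1 had 1482 reads in KO and 786 in WT (0.975-fold, 0.894 to 1.06), Gabpa 3057 in KO and 1659 in WT (0.953-fold, 0.897 to 1.01), and Yy1 3414 in KO and 1879 in WT (0.940-fold, 0.888 to 0.995). The GABP beta subunits were lower than Gabpa in ratio, Gabpb1 at 1826 reads in KO and 1053 in WT (0.897-fold, 0.831 to 0.968) and Gabpb2 at 3622 in KO and 2268 in WT (0.826-fold, 0.783 to 0.871).

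Many small accessory subunits of complexes I, III, IV and V were higher in KO Treg cells. None of the nuclear-encoded core subunits of complexes I and III that the rule takes was called (0 of 10). With 10 genes that is near the shares of all expressed genes given below. All 4 genes of complex II had ratios below 1. A gene was called at a ratio of at least 1.5-fold, on reads scaled with TMM factors plus a pseudocount of 1. By that measure 25 of 76 measured members were higher in KO (32.9%) and 2 were lower (2.63%), Cox6b1 and Atp5g2. Among all 10899 expressed genes, 7.43% were higher and 5.51% lower. Scaled to total gene reads instead, all genes split into 623 higher and 758 lower, against 810 higher and 600 lower here, and 19 members were higher. After removal of the trend with GC content and transcript length, described further on, 8 members were higher, 7 of them among the 25, and the members' median was 0.15. The members' log2 ratio of KO over WT had a median of 0.35, against 0.01 over all expressed genes, and was above 0 in 56 of 76 (73.7%, against 51.4% of expressed genes). For 51 members the counting interval lay above a ratio of 1, for 13 below it, and for 12 it held 1. The matching shares over all expressed genes were not taken, so these counts have no background. Of the 25 higher members, only 5 had an interval wholly above 1.5-fold. Of the 2 lower, Cox6b1 had an interval wholly past 1.5-fold (1.53 to 1.97 lower).

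**Figure D1:**
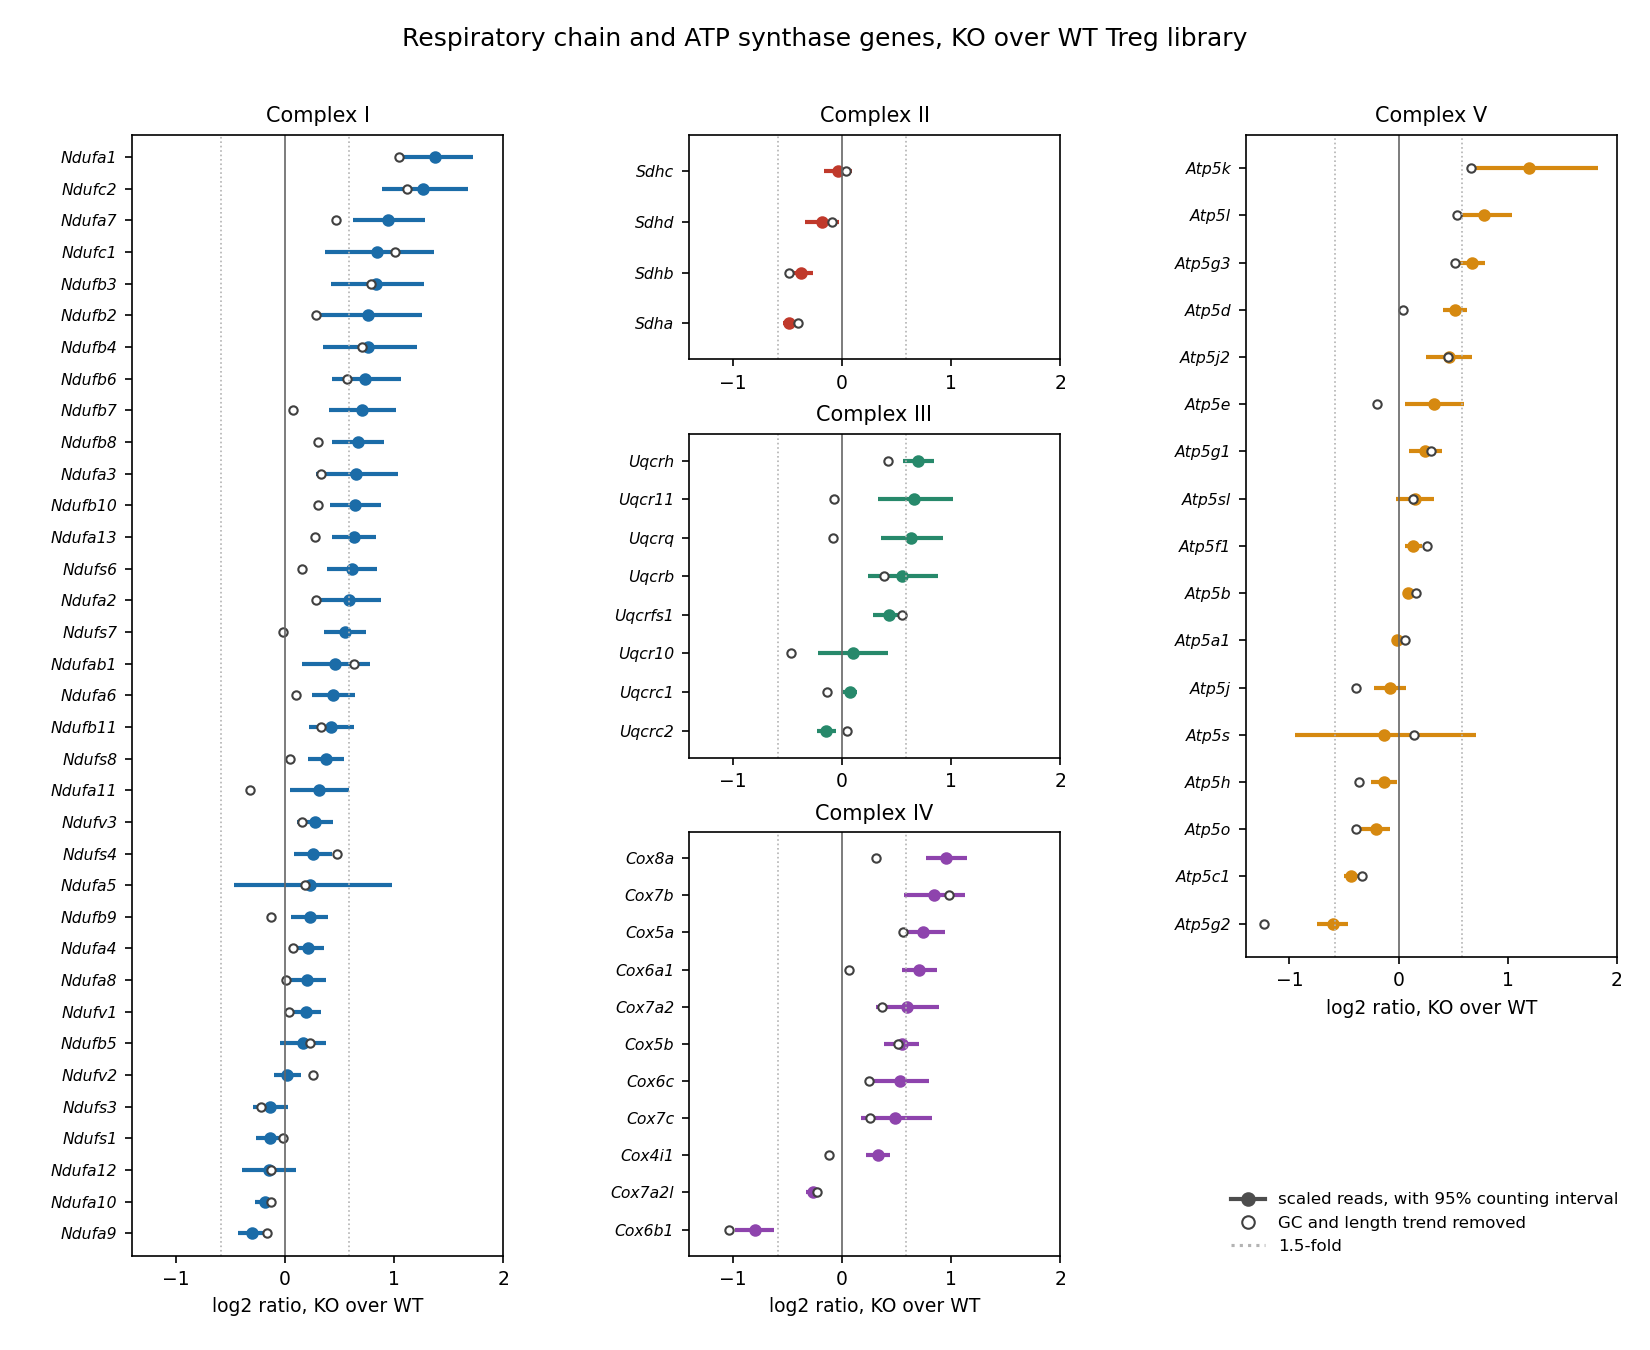
Log2 ratio of KO over WT (horizontal axis) for 75 of the 76 measured members, by complex. Filled points are scaled reads with 95% counting intervals, open circles are values after removal of the trend with GC content and transcript length, and dotted lines mark 1.5-fold; the filled points of complex II lie left of 0, and Cox6b1 and Atp5g2 lie beyond the left line.

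Complex I had 14 of 36 measured members higher and 0 lower, with a median log2 ratio of 0.43. The 14 were all accessory subunits. Ndufa1, a small membrane-arm subunit needed for assembly (chrX:37187588-37191163, minus strand), had 475 reads in KO and 94 in WT. That is 2.61-fold (2.09 to 3.30), the highest ratio of all measured members. Its level per transcript length, as RPKM of gene reads, was 47.7 RPKM in KO and 19.2 RPKM in WT. Ndufc2, another membrane-arm subunit (chr7:97400003-97407802, plus strand), had 314 reads in KO and 67 in WT (2.42-fold, 1.86 to 3.20). Its partner Ndufc1 had 157 reads in KO and 45 in WT (1.80-fold, 1.29 to 2.57). Ndufa7, of the peripheral arm, had 370 reads in KO and 99 in WT (1.93-fold, 1.54 to 2.44).

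The Ndufb genes encode subunits in the outer part of the membrane arm, and 7 of them were called. Ndufb5 (1.12-fold), Ndufb9 (1.17-fold) and Ndufb11 (1.34-fold) were measured and not called. Ndufb3 had 211 reads in KO and 61 in WT (1.79-fold), Ndufb2 165 in KO and 50 in WT (1.71-fold), and Ndufb4 201 in KO and 61 in WT (1.70-fold). Ndufb6 had 362 reads in KO and 112 in WT, Ndufb7 373 in KO and 118 in WT, Ndufb8 603 in KO and 196 in WT, and Ndufb10 604 in KO and 200 in WT, with folds from 1.56 to 1.67. The remaining called accessory subunits were Ndufa3 (244 reads in KO and 80 in WT), Ndufa13 (813 in KO and 271 in WT), also known as Grim19, and Ndufs6 (628 in KO and 212 in WT), a zinc-binding subunit. Their folds ran from 1.53 to 1.58.

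The 7 nuclear-encoded core subunits of complex I stood closer to even. Their median log2 ratio was 0.02, with 0 called, against 0.60 over the 28 measured accessory subunits. Ndufv1, which binds NADH and flavin, had 1428 reads in KO and 647 in WT (1.14-fold, 1.04 to 1.25). The iron-sulfur subunit Ndufv2 had 1669 reads in KO and 849 in WT (1.02-fold, 0.935 to 1.11). Ndufs1, the largest core subunit of the peripheral arm, had 1435 reads in KO and 815 in WT (0.911-fold, 0.835 to 0.994), and Ndufs3 had 907 in KO and 514 in WT (0.913-fold, 0.818 to 1.02). The shorter core genes Ndufs7 (847 reads in KO and 299 in WT, 1.47-fold) and Ndufs8 (1046 in KO and 417 in WT, 1.30-fold) were the highest of the core. The lowest members of complex I were also accessory subunits: Ndufa9, next to the quinone site, at 1155 reads in KO and 734 in WT (0.814-fold, 0.741 to 0.894), Ndufa10 at 2303 in KO and 1347 in WT (0.884-fold) and Ndufa12 at 378 in KO and 216 in WT (0.905-fold). Ndufa4 had the most reads per length among the Nduf genes, 91.2 RPKM in KO and 82.9 RPKM in WT (1.16-fold, 1.05 to 1.28).

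Complex II had 0 of 4 members called, and all 4 had log2 ratios below 0, with a median of -0.28. Sdha, the flavoprotein that oxidizes succinate (chr13:74322254-74350280, minus strand), had 5792 reads in KO and 4182 in WT (0.716-fold, 0.688 to 0.746). Sdhb, the iron-sulfur subunit, had 1640 reads in KO and 1100 in WT (0.771-fold, 0.714 to 0.833). The membrane anchor Sdhd had 887 in KO and 520 in WT (0.882-fold, 0.791 to 0.985), and the anchor Sdhc 1428 in KO and 758 in WT (0.974-fold, 0.892 to 1.07). The intervals of Sdha, Sdhb and Sdhd lay below 1, and that of Sdhc held 1. Sdha had the most reads per length, at 84.0 RPKM in KO and 124 in WT.

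Complex III had 3 of 8 members higher and 0 lower, with a median log2 ratio of 0.49. The 3 are small subunits: Uqcrh, the hinge protein, had 1686 reads in KO and 537 in WT (1.62-fold, 1.47 to 1.79), Uqcr11 289 in KO and 94 in WT (1.59-fold, 1.26 to 2.03), and Uqcrq 419 in KO and 139 in WT (1.56-fold, 1.28 to 1.90). Uqcrb lay just outside, at 316 reads in KO and 111 in WT (1.47-fold), and Uqcr10 was near even at 257 in KO and 124 in WT (1.07-fold, 0.862 to 1.34). The larger core proteins Uqcrc1 (5605 reads in KO and 2754 in WT) and Uqcrc2 (2886 in KO and 1648 in WT) were at 1.05-fold (1.01 to 1.10) and 0.906-fold (0.852 to 0.963). Uqcrfs1, the Rieske iron-sulfur protein, was at 1.35-fold (1.22 to 1.49), with 1426 reads in KO and 547 in WT. With the GC and length trend removed, 0 of the 8 were called and the median was -0.01, with Uqcrh at 0.43, Uqcr11 at -0.07 and Uqcrq at -0.08. Uqcrc1 was the most abundant per length, at 143 RPKM in both libraries.

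Complex IV had 5 of 11 measured members higher and 1 lower, with a median log2 ratio of 0.55, the highest of the 5 complexes. Cox8a, a small membrane subunit, had 1109 reads in KO and 295 in WT (1.94-fold, 1.71 to 2.22). Cox7b had 476 reads in KO and 137 in WT (1.80-fold, 1.48 to 2.19), Cox5a 905 in KO and 279 in WT (1.68-fold, 1.47 to 1.92), Cox6a1 1317 in KO and 416 in WT (1.64-fold, 1.47 to 1.83) and Cox7a2 398 in KO and 136 in WT (1.51-fold, 1.24 to 1.85). All 5 intervals lay above 1. Cox6b1, on the intermembrane-space face where complex IV meets cytochrome c, ran the other way (chr7:30616861-30626151, minus strand). It had 527 reads in KO and 474 in WT, 1.74-fold lower (1.53 to 1.97), and its level was 35.8 RPKM in KO and 65.8 in WT. Cox7a2l, known as a supercomplex assembly factor, had the most reads per length of the Cox genes, at 209 RPKM in KO and 265 RPKM in WT (0.832-fold, 0.797 to 0.869). Cox4i1 was at 1.26-fold (1.17 to 1.36), with 2427 reads in KO and 997 in WT.

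Complex V had 3 of 17 members higher and 1 lower, with a median log2 ratio of 0.13. The beta and alpha subunits of the catalytic head were the most abundant members: Atp5b had 26252 reads in KO and 12772 in WT (1.06-fold, 1.04 to 1.09), and Atp5a1 17381 in KO and 9062 in WT (0.992-fold, 0.967 to 1.02). Atp5b reached 576 RPKM in KO and 572 in WT. The gamma subunit Atp5c1, part of the central stalk, lay below the head, with 5191 reads in KO and 3631 in WT (0.739-fold, 0.709 to 0.772). The delta subunit Atp5d had 2562 in KO and 926 in WT (1.43-fold, 1.33 to 1.54), and the epsilon subunit Atp5e 385 in KO and 159 in WT (1.25-fold, 1.04 to 1.52).

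Of the 3 small membrane subunits at the base of the synthase that the rule takes, 2 were called higher. Atp5k (subunit e) had 134 reads in KO and 30 in WT (2.31-fold, 1.55 to 3.56), and Atp5l (subunit g) 601 in KO and 180 in WT (1.73-fold, 1.46 to 2.05). Atp5j2 (subunit f) had 668 in KO and 251 in WT (1.38-fold, 1.19 to 1.60). The rule misses the small membrane subunits Usmg5 and 2010107E04Rik, and neither was called. Usmg5 had 346 reads in KO and 142 in WT (1.26-fold, 1.03 to 1.54). For 2010107E04Rik there were 76 in KO and 37 in WT (1.06-fold, 0.708 to 1.62). The 4 genes of the peripheral stalk, which holds the head still, had a median log2 ratio of -0.11. Atp5o was lowest at 1218 reads in KO and 728 in WT (0.865-fold).

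The proton-carrying c subunit has 3 genes, known to encode the same mature protein behind different import signals. Their ratios differed in direction. Atp5g3 (chr2:73908447-73911326, minus strand) had 2154 reads in KO and 701 in WT (1.59-fold, 1.46 to 1.73). Atp5g2 (chr15:102662864-102672352, minus strand) had 879 in KO and 692 in WT, 1.52-fold lower (1.38 to 1.68). Atp5g1 had 1178 in KO and 515 in WT (1.18-fold, 1.07 to 1.32). Of the 4211 c-subunit reads in KO and 1908 in WT, Atp5g3 gave 51.2% (49.6 to 52.7) in KO and 36.7% (34.6 to 38.9) in WT. Atp5g2 gave 20.9% (19.7 to 22.1) in KO and 36.3% (34.1 to 38.5) in WT, and Atp5g1 28.0% (26.6 to 29.4) in KO and 27.0% (25.0 to 29.0) in WT. Summed over the 3 genes, the scaled reads were 1.14-fold (1.08 to 1.21). Atp5g2 has near-identical copies, Gm10175 and Gm10231, and holds Mir688 on its strand, so its count is uncertain.

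**Figure D2:**
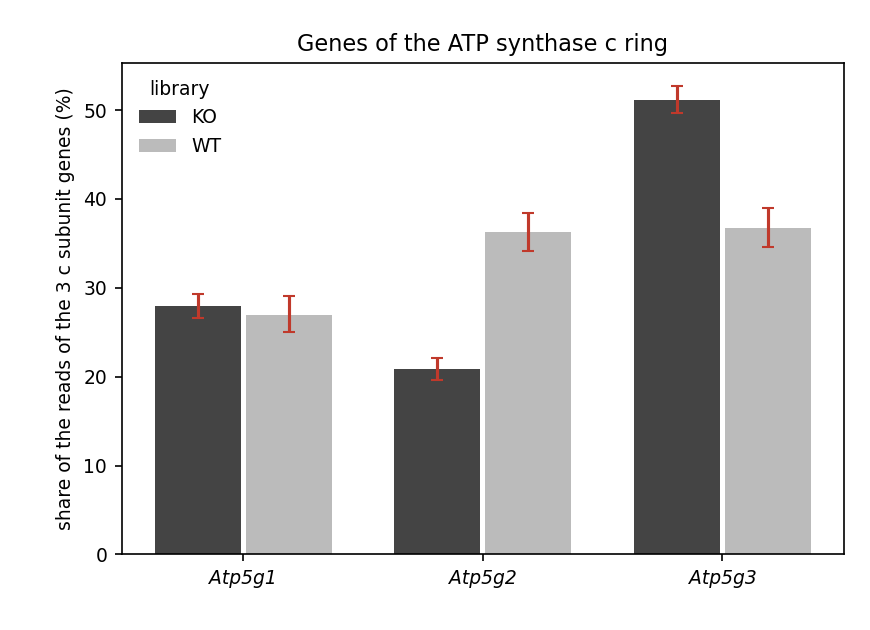
Share of the reads of the 3 c-subunit genes (vertical axis, %) given by each gene, KO left and WT right, with 95% counting intervals in red. Atp5g3 gives 51.2% in KO and 36.7% in WT, and Atp5g2 20.9% in KO and 36.3% in WT.

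Isoforms known from muscle, lung or testis were rare or at 0, so 1 gene supplied nearly all reads of each pair. Cox4i1 gave 99.7% of Cox4 reads in KO and 99.9% in WT, Cox6a1 98.9% in KO and 98.1% in WT, and Cox6b1 98.7% in KO and 99.6% in WT. Cox7a2 gave 99.3% of its reads with Cox7a1 in both libraries, and Cox8a 99.9% in KO and all 295 in WT. The 9 members under the floor were Cox4i2 (8 reads in KO and 1 in WT), Cox6a2 (15 in KO and 8 in WT), Cox6b2 (7 in KO and 2 in WT), Cox7a1 (3 in KO and 1 in WT), Cox8b (1 in KO and 0 in WT), and Cox7b2, Cox8c, Ndufa4l2 and Ndufs5, at 0 in both. A count of 0 allows up to 3 reads per library. Ndufs5, a small complex I subunit, has a near-identical copy, BC002163, with 42 reads in KO and 6 in WT, so its 0 is uncertain.

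Summed over members, the share of gene reads differed little: 0.552% (0.549 to 0.555) in KO and 0.559% (0.555 to 0.564) in WT. The balance between complexes differed more. Complex I took 0.117% in KO and 0.107% in WT, complex III 0.0542% in KO and 0.0511% in WT, and complex IV 0.0610% in KO and 0.0581% in WT. Complex II took 0.0410% (0.0402 to 0.0418) in KO and 0.0563% (0.0549 to 0.0576) in WT. Complex V took 0.279% (0.276 to 0.281) in KO and 0.287% (0.284 to 0.290) in WT. On scaled reads the sums were 1.15-fold for complex I (1.13 to 1.18), 0.768-fold for complex II (0.745 to 0.793), 1.12-fold for complex III (1.09 to 1.15), 1.11-fold for complex IV (1.08 to 1.14) and 1.02-fold for complex V (1.01 to 1.04). Without Cox7a2l, which is not a subunit, complex IV took 0.0386% in KO and 0.0296% in WT, at 1.37-fold (1.32 to 1.43). Ndufa4, now assigned to complex IV, was not added to that sum and stayed in the sum of complex I. Over all expressed genes the sum on scaled reads was 1.06-fold. On that scale complex II was the only complex whose summed interval lay below 1.

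**Figure D3:**
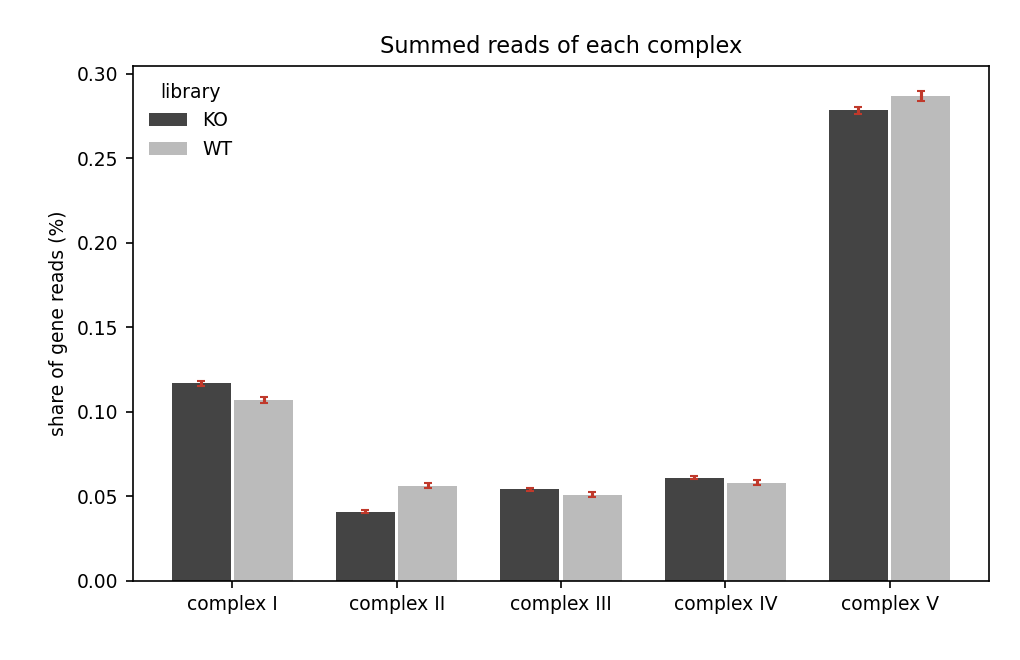
Summed reads of each complex as a share of gene reads (vertical axis, %), KO left and WT right, with 95% counting intervals in red. Complex II takes 0.0410% in KO and 0.0563% in WT, while complexes I, III and IV take a larger share in KO than in WT.

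Members called higher in KO were mostly short, with 20 of 25 under 750 bases. The Spearman correlation of the log2 ratio with transcript length was -0.53 across the 76 measured members and -0.03 across expressed genes; with GC content it was 0.09 and 0.43. With the mean number of reads it was -0.59 across members and 0.07 across expressed genes. Within complexes, the correlation with length was -0.64 in complex I (36 members), -0.09 in complex IV (11) and -0.19 in complex V (17), and that with mean reads -0.75, -0.18 and -0.29. All points share the same 2 libraries. From 500 to 750 bases, the 26 members had a median log2 ratio of 0.63 and 57.7% were higher, against 0.27 and 24.0% of 204 other expressed genes of that length. Below 500 bases the medians were 0.65 (8 members) and 0.53 (61 other genes), with 62.5% and 45.9% higher. From 750 to 1000 bases they were 0.44 (12 members) and 0.15 (368 other genes), with 16.7% and 13.6% higher. From 1000 to 1500 bases they were -0.13 (14 members) and 0.01 (1065 other genes), with 21.4% and 8.17% higher. From 1500 to 2500 bases the medians were 0.08 (12 members) and -0.02 (2639 other genes), with 0 members and 5.72% of other genes higher. Above that they were -0.09 (4 members) and 0.00 (6438 other genes), with 0 members and 6.43% of other genes higher. With so few members, 0 is near these shares. Median transcript length was 541 bases for complex III, 645 for complex IV, 868 for complex I, 931 for complex V and 2066 for complex II.

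**Figure D4:**
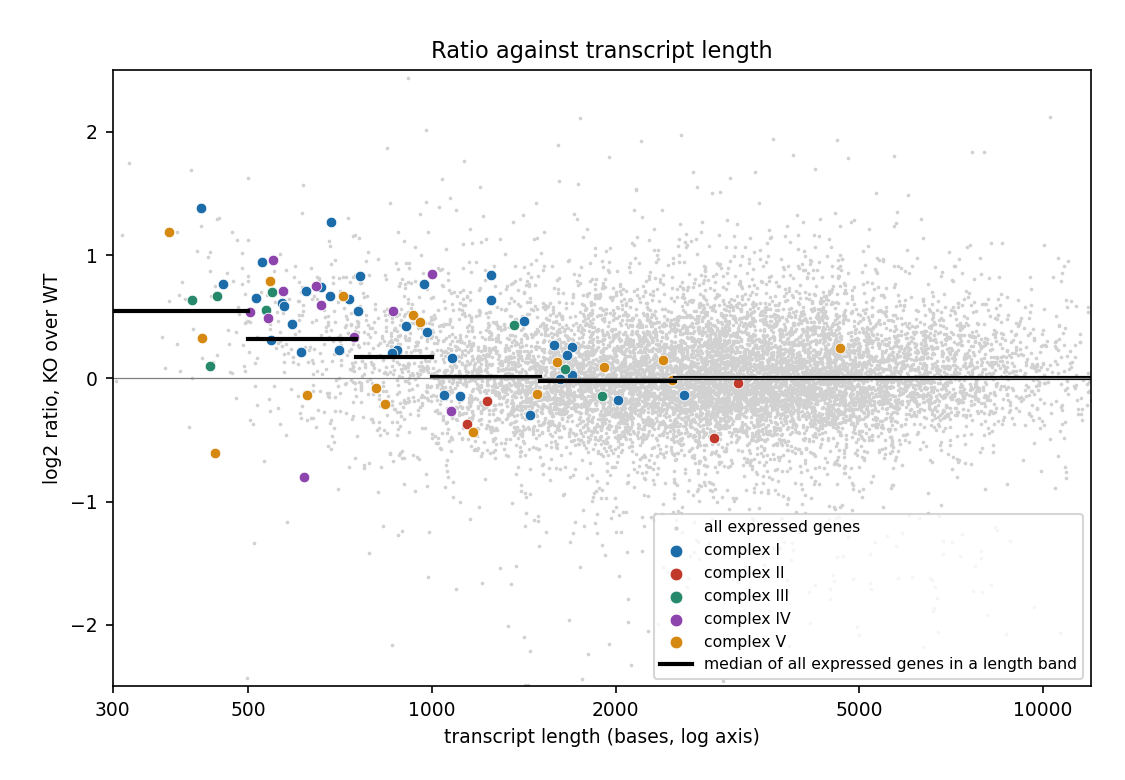
Log2 ratio of KO over WT (vertical axis) against transcript length (bases, log axis) for measured members, coloured by complex, and all expressed genes in grey; 122 expressed genes and 0 members lie outside the axes. Black bars are medians of all expressed genes per length band, near 0 above 1000 bases and 0.54 below 500.

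After a smooth trend of the log2 ratio with GC content and length over all expressed genes was removed, 8 members were higher (10.5%, against 4.38% of expressed genes) and 2 lower (2.63%, against 5.37%), with 52 of 76 above 0 (68.4%, against 52% of expressed genes). Of the 25, 7 remained: Ndufa1 at a log2 ratio of 1.04, Ndufc2 at 1.12, Ndufc1 at 1.01, Ndufb3 at 0.79, Ndufb4 at 0.71, Cox7b at 0.98 and Atp5k at 0.67. Ndufab1, the mitochondrial acyl carrier protein, entered at 0.64 (323 reads in KO and 121 in WT). Its count is uncertain, because it has near-identical copies (Gm4459 and Ndufab1-ps) and an exon that overlaps Gm44986. Cox6b1 at -1.04 and Atp5g2 at -1.23 lay further from 0 than before. The complex medians became 0.21 for complex I, -0.24 for complex II, -0.01 for complex III, 0.26 for complex IV and 0.13 for complex V. Complex II kept the lowest median, with Sdhb at -0.48, Sdha at -0.40, Sdhd at -0.09 and Sdhc at 0.04, so 3 of its 4 genes stayed below 0. No complex III member was called (0 of 8). The gap between accessory and core subunits of complex I narrowed to medians of 0.29 and 0.00. The trend was fitted over all expressed genes and did not leave the members free of these relations. After removal, the members' Spearman correlation was -0.40 with GC content, -0.12 with length and -0.45 with mean reads. Across expressed genes it was 0.00, 0.02 and 0.09. What underlies the trend was not tested.

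Just inside the 1.5-fold threshold were Cox7a2 (1.51-fold) and Ndufs6 (1.53-fold), and just outside Ndufa2 (383 reads in KO and 132 in WT, log2 ratio 0.58). For 28 measured members an exon overlaps that of another gene. Among the called these are Ndufb2 (Braf), Ndufb6 (Smim27), Ndufb8 (Gm20538), Ndufa3 (Tfpt), Ndufa13 (Tssk6), Ndufs6 (Mrpl36), Cox5a (Gm26631), Atp5l (Gm30934) and Atp5g2 (Mir688). Whether the counting used strand is not stated in the sources used here, so reads of such neighbours cannot be told apart. Near-identical copies were found for 15 measured members, among the called Ndufb4, Uqcr11, Atp5l and Atp5g2, whose counts are uncertain.

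Genes that build, feed or regulate these complexes were described by the same measure. Of 43 measured assembly factors (47 listed), 4 were higher and 1 lower, with a median log2 ratio of -0.05. The shares, 9.30% higher and 2.33% lower, are set against 7.43% and 5.51% of all expressed genes, so the list as a whole was near that background. Uqcc2, a complex III assembly factor, had 170 reads in KO and 28 in WT (3.14-fold, 2.10 to 4.87), and Ndufaf2, for complex I, 123 in KO and 29 in WT (2.19-fold, 1.45 to 3.41). Cox10, which makes the haem of complex IV, had 1181 in KO and 339 in WT (1.80-fold, 1.60 to 2.04), and Cox14 418 in KO and 122 in WT (1.77-fold, 1.44 to 2.19). Tmem126b, a complex I assembly factor, had 194 in KO and 166 in WT, 1.65-fold lower.

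Of 11 subunits and carriers outside the symbol rule, 0 were called in either direction, and the median log2 ratio was 0.07. The largest log2 ratios were 0.57 for Atpif1, the ATP synthase inhibitor (342 reads in KO and 119 in WT), and -0.41 for Sqrdl (260 in KO and 179 in WT). Cyc1 and Cycs, the cytochromes of complex III and of the shuttle to complex IV, were at 0.17 and -0.03. Among 22 measured regulators of mitochondrial biogenesis (23 listed), 1 was called higher and 0 lower, and the median was -0.08. That is 4.55% higher, beside 7.43% of all expressed genes, and rests on 1 gene. The coactivator Ppargc1b had 293 reads in KO and 88 in WT (1.72-fold, 1.35 to 2.21), and Tfam, which packages mitochondrial DNA, 1276 in KO and 712 in WT (0.927-fold, 0.845 to 1.02). Of 25 measured import and cristae genes (26 listed), 3 were called higher and 0 lower, and the median was 0.04. Of all expressed genes, 7.43% were higher and 5.51% lower. They were the small import proteins Timm13 (345 reads in KO and 81 in WT, 2.20-fold), Tomm7 (407 in KO and 113 in WT, 1.86-fold) and Timm10 (124 in KO and 36 in WT, 1.78-fold). Of 13 listed symbols for mitochondrially encoded subunits, 0 were found in the count table, so these subunits were not analysed.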

How the data were processed

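Libraries were prepared from bead-captured mRNA with a tagmentation kit, per the labels' protocols. The submitters' processing notes name mm10, HTSeq and TopHat2 2.0.3; annotation, strandedness and read length are not stated there. The authors deposited raw read counts per gene, not normalized, in 1 table of 24086 entries. Its 5 categories of reads outside genes did not enter library sizes, which leaves 76.6% of counted reads in each library. Grouping follows the titles, because both libraries carry a wild-type genotype label. The targeted gene and 1 member, which counts in the sums and medians, are not reported by name here.

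Counts were scaled with TMM factors of edgeR 4.0.16 (0.974 for KO, 1.03 for WT) in R 4.3.3 to the mean effective library size, with a pseudocount of 1 for log2 ratios and none for printed folds. The floor was 20 raw counts, averaged over the libraries. RPKM values were computed from the counts, per kilobase and per 1e6 gene reads. Levels, lengths, exons and gene positions used GENCODE M21 (GRCm38), in which all 85 members matched; 23709 of 24081 symbols matched. Copies of at least 97% identity over 150 bases were found with BLAST 2.17.0. The GC and length trend was fitted with mgcv 1.9.3, for the 10851 genes with a matched transcript. Python 3.11.15 with scipy 1.17.1, numpy 2.4.6, pandas 2.3.3 and matplotlib 3.10.9 was used for tables and plots. Intervals were checked on simulated counts that held counting error alone, so the check says nothing of spread between mice or repeated reads.

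The named genes were all members past 1.5-fold, the 3 highest and 3 lowest of each complex and its most abundant member. Isoform sets, core and F1 subunits, members nearest the threshold, and up to 4 genes of each list outside the rule were also named. Ndufab1, Ndufa5, Ndufb5, Ndufb9, Ndufb11, Atp5j2, Atp5s, Tmem126b, BC002163, 2010107E04Rik, Nrf1, Gabpa, Gabpb1, Gabpb2, Yy1, Cyc1, Cycs and Tfam were added after their values were seen. Members and lists were chosen with earlier results of these data known. Alternatives tried were total-count and DESeq2 1.42.0 scaling, pseudocount 5, no floor or a floor of 100, removal of GC or length trends, and leaving out overlapping genes, copied genes or members that are not subunits. The GC-only and length-only trends and the last 2 omissions were chosen after seeing the data.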

Additional observations from a re-analysis of the deposited data

How the results depend on the processing

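No paired analysis was possible because each group has 1 library, and for the same reason no library could be left out. Removal of the GC and length trend left 8 members higher, removal of length alone 9 and removal of GC alone 21, against 25. Medians under the joint removal were 0.15 for all members, 0.21 for complex I, -0.0138 for complex III and 0.26 for complex IV. Under length alone complex III was at 0.20. Under the joint removal Uqcr11 reversed to -0.0743 and Uqcrq to -0.0779. Lower members numbered 1 without overlapping genes and 1 without copied genes, since Atp5g2 is in both groups. Medians near 0 changed sign: assembly factors to 0.0097 (joint) and 0.015 (GC alone), carriers to -0.0063 (total counts) and -0.011 (length alone), and import genes to -0.0326 (total counts). Apart from the changes by construction, the cause was not tested. Among other medians that moved by over 1.5 times were 0.27 for complex III without copied genes, and under total counts 0.06 for complex V, -0.13 for assembly factors and -0.16 for regulators, which were at -0.0026 under the joint removal. Counting error limits the least-read members, such as Atp5s (37 reads in KO and 21 in WT) and Ndufa5 (57 in KO and 25 in WT).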
